A study of Mus musculus with 2 samples.

Results

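The 32 genes described here encode proteins that prepare, copy and repackage DNA when a cell divides, and enzymes that supply its nucleotides. They were taken as a fixed list by function, and all 32 were found among the 22253 genes measured. Their roles are loading and forming the replicative helicase (9 genes), the sliding clamp with its loader and fork partners (8), DNA synthesis, processing and repair (5), nucleotide supply (4), chromatin assembly and histone supply (5), and transcription of the replication genes (E2f1).

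Before a cell copies its DNA, Cdc6 and Cdt1 load the ring of Mcm2 to Mcm7 onto replication origins, and Cdc45 later joins that ring in the active helicase. Primase and polymerase alpha start each DNA strand, the clamp Pcna is placed on DNA by replication factor C, and ligase seals the pieces. Ribonucleotide reductase, thymidylate synthase and dUTPase set the supply of DNA precursors, while chromatin assembly factors wrap the copy in histones. In the intestinal lining, division is restricted to the crypts, where stem cells and their fast dividing daughters sit, and the replication genes are commonly used to recognise cells that are copying DNA.

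Cells came from 3 Etv1 mutant and 2 control cultures of mouse small intestinal epithelium, which the labels call biological replicates, without saying whether they came from separate animals. Etv1 encodes a transcription factor of the ETS family. Every culture, mutant or control, carried the genotype Neurog3-RFP;Gcg-Venus, a pair of fluorescent reporters of the enteroendocrine lineage. The nature of the Etv1 mutation, the gate of the cell sort and the age of the animals are not given in the sources used here. The cells were sorted, tagged per culture with hashtag oligonucleotides, pooled and sequenced, and the 3409 barcodes of the RNA table were those of the hashtag table. After assignment by hashtag and filtering, 282, 281 and 197 mutant cells and 323 and 349 control cells were analysed, with 4193197 to 7254380 unique molecular identifiers (UMIs) per culture.

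Levels are given as CPM, the counts of a gene scaled to a fixed total of UMIs over the cells summed in a culture, and are compared within a gene, never between genes. Gene lengths and capture differ between genes. Some cultures stood apart before any result on the 32 genes. Mutant culture 1 had the most cycling-like cells and the highest summed mitotic markers (1682 CPM, against 1266 and 726 CPM in the other mutant cultures and 1116 and 1262 CPM in the control cultures). Control culture 1 had the highest summed Paneth markers, 6827 CPM, against 1037 to 2329 CPM in the mutant cultures and 2626 CPM in control culture 2. It also had the highest summed enteroendocrine markers, 646 CPM, against 180 to 186 CPM in the mutant cultures and 197 CPM in control culture 2. Markers of non-epithelial cells were at or near 0, since all 5 mesenchymal markers had no count and summed immune markers reached at most 0.95 CPM in mutant and 0.14 CPM in control cultures.

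The promoters of many of these genes hold letters that E2F factors, the family of E2f1, are known to bind. In RefSeq windows of build GRCm38.p6, which run 250 bases before to 50 bases after an annotated start of a gene, 30 of the 32 genes had an entry. Some genes had more than 1 window, 35 in all for these 30, and a word in any of them counted. One of the words TTTCCCGC, TTTCGCGC, TTTGCCGC or TTTGGCGC, on either strand, was present in 12 of these 30. The same words were present in 4.88% of the 8839 genes tested in the expression comparison below that had an entry, and in 2.60% of all 27025 genes with one. Of the list of other replication genes used further on, 18 of 70 (25.7%) held one. More than 1 match occurred in 5 of the 30, against 0.25% of the genes tested.

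The sequences that follow show these letters in capitals, on the gene's own strand, for members of several roles. Mcm6, which had the most matches, has 3 of them in the last 120 bases before its start, at chr1:128359706-128359825 on the minus strand, where the first pair overlap.
Mcm6: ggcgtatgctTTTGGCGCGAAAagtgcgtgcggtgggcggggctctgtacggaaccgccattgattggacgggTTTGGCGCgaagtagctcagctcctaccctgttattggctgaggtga
The next windows are 30 bases long and lie at chr8:75109347-75109376 (Mcm5, plus strand), chr11:98908002-98908031 (Cdc6, plus strand), chr9:65890307-65890336 (Pclaf, plus strand, spanning the start), chrX:93632275-93632304 (Pola1, minus strand) and chr17:56304117-56304146 (Uhrf1, plus strand).
Mcm5: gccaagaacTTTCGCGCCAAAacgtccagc
Cdc6: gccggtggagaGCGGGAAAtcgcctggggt
Pclaf: gcttggagcgcGCGGGAAAgagacccattt
Pola1: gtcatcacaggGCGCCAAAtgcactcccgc
Uhrf1: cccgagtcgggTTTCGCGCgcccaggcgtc
In Mcm5 a match on each strand overlaps the other. The Uhrf1 match lies in 1 of that gene's 2 windows, the one at the later start, and the other window holds none. The other genes with a match were Mcm3, Mcm7, Cdt1, Clspn, Lig1 and Rfc3. The CCAAT box, bound by NF-Y, was present on either strand as CCAAT in 19 of 30 (63.3%), against 43.9% of the genes tested. The word TTTGAA, part of the CHR element of genes that peak in mitosis, was present in 4 of 30 (13.3%, in Mcm2, Cdc45, Fen1 and Asf1b), against 14.99%. Apart from the E2F words that overlap each other in Mcm6 and Mcm5, 1 match of a CCAAT box overlapped an E2F word, in Mcm7. A match describes these letters only, and a gene without one, such as Rrm2, Tyms, Dut or Slbp, lacked them in this window alone.

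Across cell clusters, transcripts of the 32 genes were highest in dividing crypt cells and lowest in absorptive cells. The clusters were made without the 32 genes and without the list of other replication genes, so member levels did not build them. They were still built from genes of the same cells, so the levels are a description and carry no test. Of the cycling-like cells, 215 formed a cluster led by the histone genes Hist1h2ap and H2ac7 with the mitotic genes Ube2c and Nusap1. In it 15 of 15 mitotic markers were raised, and 14 of 18 S-phase markers, a list with histone genes and none of the 32. The other 96 formed a cluster whose leading genes, counted over all genes, were Pclaf and Rrm2. In it 4 of 15 mitotic and 8 of 18 S-phase markers were raised. The naming rule called the first cluster S phase and the second mitotic, so neither is a clean phase. Both are described here by their leading genes. Next to these stood a stem-like cluster of 296 cells, and an unnamed cluster of 180 cells led by Atf5, Ung and Psat1. Summed over the list, the 32 genes took 0.372% ± 0.0166 of UMIs in the Pclaf/Rrm2 cluster (SD, n = 5 cultures) and 0.297% ± 0.0253 in the histone/mitotic cluster. They took 0.226% ± 0.0434 in the Atf5/Ung cluster, 0.185% ± 0.0276 in stem-like cells, and 0.0226% ± 0.0043 in the enterocyte-like cluster led by Apoa1.

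Among clusters of full depth, 27 of the 32 genes had their highest mean CPM over cultures in the Pclaf/Rrm2 cluster. That cluster is named after Pclaf and Rrm2, so high levels of these genes in it, here and below, come with the name. Some means were nearly level, as for Rfc5 (94.9 CPM against 94.7 CPM in the histone/mitotic cluster). In 5 of 5 cultures, 17 genes were higher there than in the histone/mitotic cluster, and 23 higher than in the Atf5/Ung cluster. By mean, Pclaf, Pola1, Rrm1 and Asf1b were highest in the histone/mitotic cluster, and Ung in the Atf5/Ung cluster. Of those 4, Pclaf alone was higher than in the Pclaf/Rrm2 cluster in 5 of 5 cultures. Relative to stem-like cells, 28 genes were higher in the Pclaf/Rrm2 cluster in 5 of 5 cultures, with a median ratio of 1.85 over the 32 genes. In the histone/mitotic cluster 17 were higher and 5 were lower than in stem-like cells in 5 of 5 cultures, with a median ratio of 1.30. The 5 lower ones were Mcm2, Mcm3, Mcm6, Cdt1 and Ung. The share of all genes that differ between these clusters in 5 of 5 cultures was not computed. The counts here and in the paragraphs on each role thus have no background beside them.

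**Figure D1:**
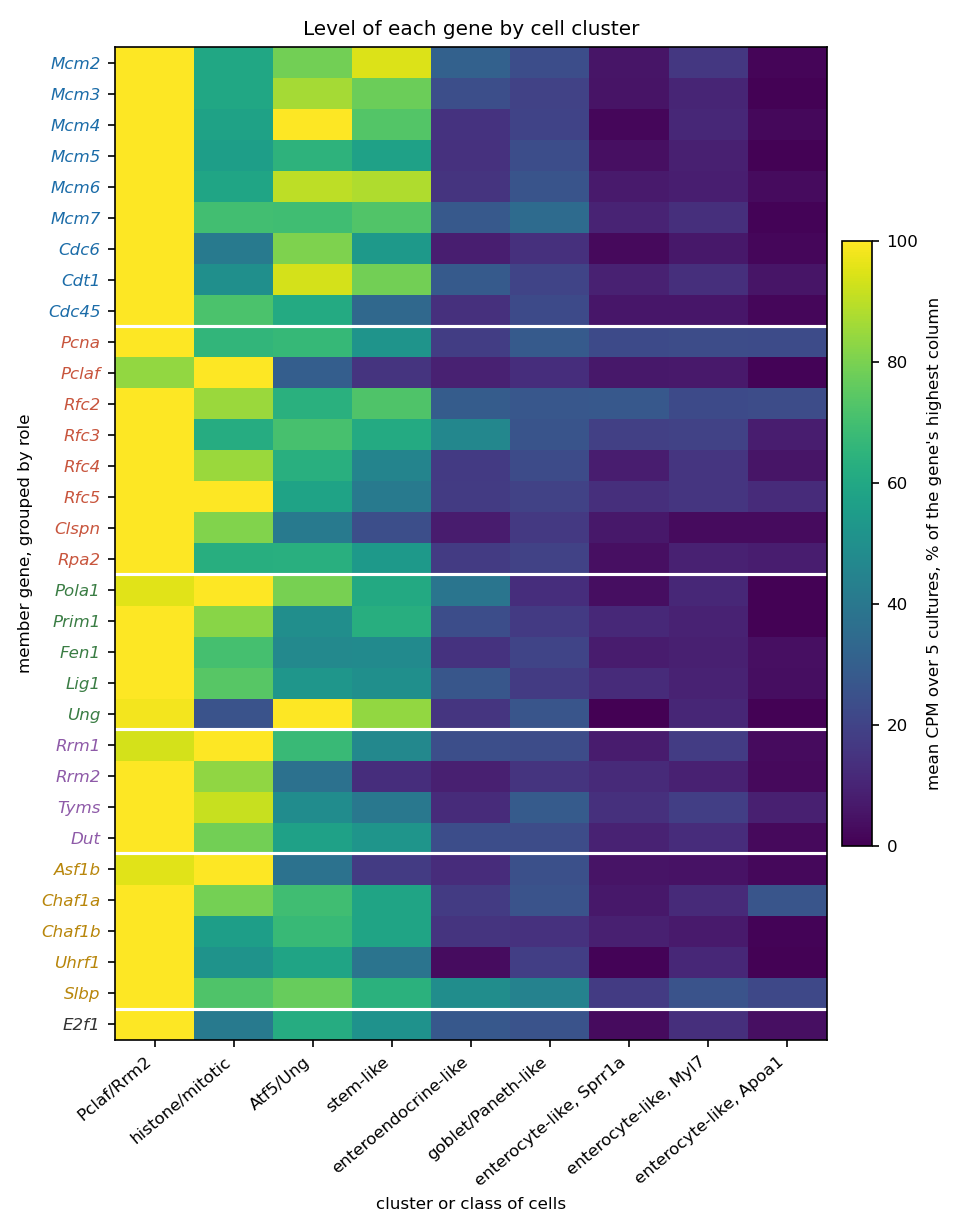
Heat map of the 32 genes (rows, grouped and coloured by role) over 9 clusters or classes of cells (columns). Colour gives the mean CPM over 5 cultures as a percentage of the gene's highest column: most genes are highest in the Pclaf/Rrm2 column, Pclaf in the histone/mitotic column, and all are low in the Apoa1 enterocyte-like column.

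The helicase and licensing genes had a median ratio of 0.769 between the histone/mitotic cluster and stem-like cells, against 1.33 to 2.22 for the roles other than E2f1. Mcm6, a helicase subunit, stood at 127 ± 16.2 CPM in the Pclaf/Rrm2 cluster and 74.8 ± 14.7 CPM in the histone/mitotic cluster (SD, n = 5 cultures, here and below). It stood at 114 ± 21.1 CPM in the Atf5/Ung cluster and 112 ± 20.1 CPM in stem-like cells. The histone/mitotic cluster thus held the lowest Mcm6 level of the 4, below stem-like cells in each culture. Mcm3, another subunit, followed the same order, with 126 ± 15.2 CPM in the Pclaf/Rrm2 cluster, 75.02 ± 8.83 CPM in the histone/mitotic cluster and 97.6 ± 21.8 CPM in stem-like cells. Mcm2 differed little between the Pclaf/Rrm2 cluster (48.7 ± 12.04 CPM) and stem-like cells (46.1 ± 6.21 CPM), and those ranges overlapped. Mcm4 was level between the Pclaf/Rrm2 cluster (92.5 ± 5.02 CPM) and the Atf5/Ung cluster (92.5 ± 21.2 CPM).

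Cdc6, which brings the ring to origins, had a ratio of 2.42 between the Pclaf/Rrm2 and histone/mitotic clusters and was higher in the first in 5 of 5 cultures. For Cdt1, its loading partner, that ratio was 2.00. Cdc45, which acts after loading, departed from the other 8 genes of its role. It was 2.11-fold higher in the histone/mitotic cluster than in stem-like cells, in 5 of 5 cultures, the single gene of its role to be so.

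In the histone/mitotic cluster relative to stem-like cells, Pclaf had the highest ratio of the 32 (6.70). Pclaf, a small protein that binds the clamp, stood at 564 ± 37.8 CPM in the Pclaf/Rrm2 cluster, 675 ± 74.9 CPM in the histone/mitotic cluster and 101 ± 32.7 CPM in stem-like cells. It was the sole gene of the 32 that was lower in the Pclaf/Rrm2 cluster than in the histone/mitotic cluster in 5 of 5 cultures (ratio 0.836). Pcna, the clamp itself, stood at 232 ± 24.4 CPM, 153 ± 19.2 CPM and 119.7 ± 27.7 CPM in those same cell groups. In the Apoa1 enterocyte-like cluster Pcna stood at 53.2 ± 10.7 CPM, a ratio of 0.444 to stem-like cells.

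Replication factor C loads the clamp, and its subunits differed in pattern. Rfc4 and Rfc5 were 1.89-fold and 2.44-fold higher in the histone/mitotic cluster than in stem-like cells, in 5 of 5 cultures, while Rfc3 (ratio 1.02) was higher in 3 and lower in 2. Rfc2 had 27.2 ± 10.4 CPM in the Apoa1 enterocyte-like cluster, against 84.0 ± 13.5 CPM in stem-like cells. Clspn, which relays the checkpoint signal at stalled forks, was 3.37-fold higher in the histone/mitotic cluster than in stem-like cells. Rpa2, a subunit of the single-strand binding complex, stood at 99.9 ± 20.03 CPM in the Pclaf/Rrm2 cluster and 62.7 ± 16.8 CPM in the histone/mitotic cluster, and was higher in the first in 4 of 5 cultures.

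Among the synthesis and repair enzymes, Ung alone was lower in the histone/mitotic cluster than in stem-like cells. It removes uracil from DNA. It stood at 49.5 ± 11.9 CPM in the Pclaf/Rrm2 cluster, 12.9 ± 6.33 CPM in the histone/mitotic cluster, 50.5 ± 7.90 CPM in the Atf5/Ung cluster and 42.4 ± 7.55 CPM in stem-like cells. Its ratio of 3.83 between the Pclaf/Rrm2 and histone/mitotic clusters was the highest of the 32. Lig1, the ligase that joins the pieces of the lagging strand, stood at 140.4 ± 26.1 CPM, 104 ± 10.1 CPM and 70.1 ± 4.95 CPM in the Pclaf/Rrm2, histone/mitotic and stem-like cells. Prim1, the catalytic subunit of primase, stood at 90.5 ± 9.75 CPM, 74.4 ± 7.57 CPM and 56.6 ± 13.3 CPM in those cells. Pola1, the catalytic subunit of polymerase alpha, was 1.65-fold and Fen1, the flap nuclease, 1.47-fold higher in the histone/mitotic cluster than in stem-like cells, Fen1 in 4 of 5 cultures.

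All 4 nucleotide supply genes were higher than in stem-like cells in both cycling-like clusters and in 5 of 5 cultures. Rrm2, the small subunit of ribonucleotide reductase, had the highest ratio of the 32 between the Pclaf/Rrm2 cluster and stem-like cells, with 109 ± 20.7 CPM against 14.1 ± 3.37 CPM (ratio 7.67). Its level in the histone/mitotic cluster was 90.3 ± 12.6 CPM. Rrm1, the large subunit, moved less, with ratios of 2.00 and 2.14 in the same comparisons. Tyms, which makes thymidylate, stood at 198 ± 8.51 CPM in the Pclaf/Rrm2 cluster, 182 ± 16.8 CPM in the histone/mitotic cluster and 79.0 ± 14.5 CPM in stem-like cells. Dut, which destroys dUTP, stood at 296 ± 34.4 CPM, 233 ± 32.5 CPM and 154 ± 24.8 CPM there.

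The chromatin genes also differed among themselves. Asf1b, a histone chaperone, was 5.50-fold higher in the Pclaf/Rrm2 cluster and 5.75-fold higher in the histone/mitotic cluster than in stem-like cells. Chaf1b, a subunit of chromatin assembly factor 1, stood at 68.7 ± 5.16 CPM in the Pclaf/Rrm2 cluster and 38.6 ± 7.56 CPM in the histone/mitotic cluster. Stem-like cells had 40.1 ± 8.08 CPM, which overlapped with the histone/mitotic cluster. Chaf1a, its partner, kept 10.3 ± 4.23 CPM in the Apoa1 enterocyte-like cluster, the smallest drop of the list there (ratio to stem-like cells 0.452). Uhrf1, which couples DNA methylation to replication, was 1.95-fold higher in the Pclaf/Rrm2 than in the histone/mitotic cluster, in 5 of 5 cultures. Slbp, which binds the stem-loop of histone messages, was among the least restricted genes, with 155 ± 23.2 CPM in the Pclaf/Rrm2 cluster, 98.9 ± 21.2 CPM in stem-like cells and 33.8 ± 3.62 CPM in the Apoa1 enterocyte-like cluster. E2f1 was 2.46-fold higher in the Pclaf/Rrm2 than in the histone/mitotic cluster, in 5 of 5 cultures, at 28.5 ± 8.07 CPM and 11.6 ± 6.25 CPM.

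Differentiated cells held little of these transcripts. In the Apoa1 enterocyte-like cluster all 32 genes were lower than in stem-like cells in 5 of 5 cultures, with a median ratio of 0.068. The share of all genes lower there in 5 of 5 cultures was not computed. Summed over the list, goblet/Paneth-like cells had 0.0843% ± 0.0249 of UMIs and enteroendocrine-like cells 0.0740% ± 0.0228. With each cell thinned to 5000 UMIs, a median of 11 of the 32 genes was found per cell in the Pclaf/Rrm2 cluster and 9 in the histone/mitotic cluster. The median was 7 in the Atf5/Ung cluster, 5 in stem-like cells, 2 in enteroendocrine-like cells, and 1 in goblet/Paneth-like and in enterocyte-like cells. Thinning left out 27 to 51 shallower cells per mutant culture and 31 and 41 per control culture. Pclaf was then found in 187 of 215 histone/mitotic cells (87.0%) and in 4 of 86 Apoa1 enterocyte-like cells (4.65%). Median depths before thinning were 34231 and 26415 UMIs, and the unthinned shares were 99.1% and 9.38%. These are shares of cells with a UMI, and the share that free RNA gives was not estimated.

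Over all analysed cells, cycling-like cells made up 21.7% of cells and held 33.1% of UMIs. They held 73.6% of Pclaf, 69.7% of Asf1b and 68.2% of Rrm2 counts. At the other end they held 36.6% of Cdt1 counts and 28.2% of Ung counts, and Ung was the single gene below the share of all UMIs.

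The 32 genes varied together from cell to cell, and differed in how they varied with mitotic genes. Across 607 stem-like and cycling-like cells, Spearman's rho of a gene with the sum of the other 31 ranged between 0.39 for Ung and 0.76 for Lig1, with a median of 0.61. With the summed mitotic markers, rho ranged between −0.26 for Ung and 0.69 for Pclaf. It was below zero for 8 genes, which were Ung, Mcm2, Mcm3, Mcm4, Mcm6, Cdc6, Cdt1 and E2f1. It exceeded 0.3 for 8 others, namely Pclaf, Asf1b, Rrm2, Rfc5, Tyms, Rfc4, Rrm1 and Clspn. All these cells share libraries, and each value is a count divided by the UMIs of its cell, so the coefficients describe these cells and carry no p. Both classes were pooled, and the mitotic markers also named the cycling-like class. The coefficients thus mix differences between the classes with those within them, and none was computed within a class. Mean UMIs per cell ranged between 0.40 for E2f1 and 12.04 for Pclaf, so rho is not comparable between low and high genes.

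**Figure D2:**
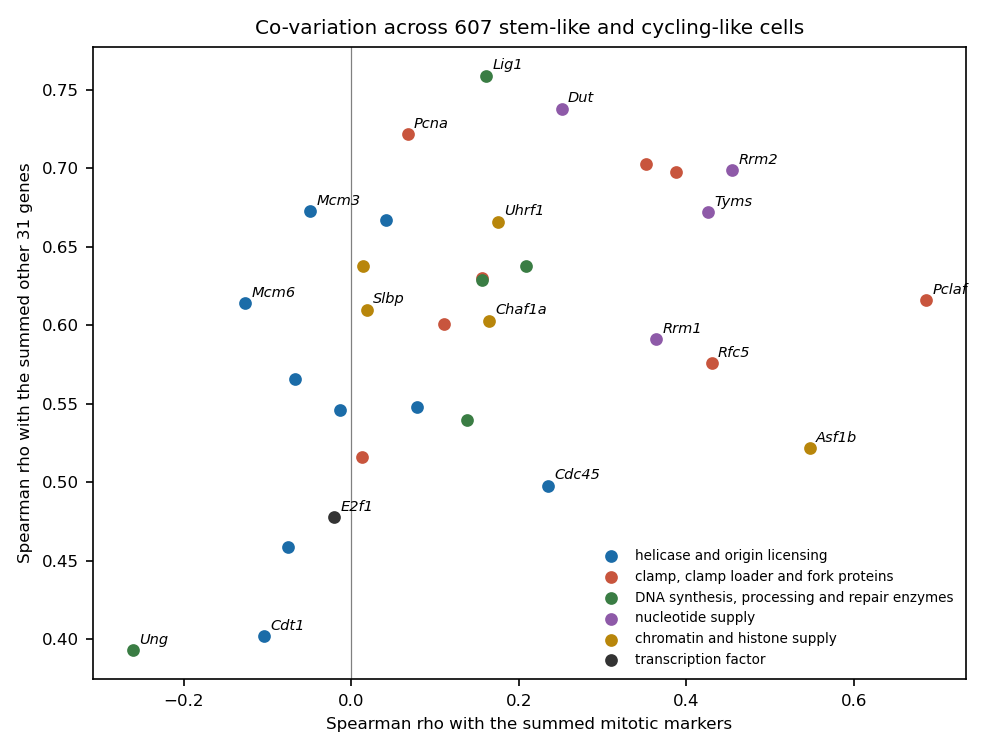
Each point is 1 of the 32 genes, coloured by role, with its Spearman rho across 607 stem-like and cycling-like cells to the summed mitotic markers (horizontal axis) and to the summed other 31 genes (vertical axis). Helicase genes cluster near or left of zero, nucleotide supply genes lie to the right, Pclaf is farthest right and Ung farthest left.

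The first comparison of mutant with control cultures took all cells, and asked whether the amount of replication transcripts differed when Etv1 was mutated. It found no difference in the 32 genes beyond the spread of cultures. In the edgeR quasi-likelihood test on counts summed per culture, 0 of the 32 genes passed an adjusted p under 0.05, and 0.00904% of the 11061 genes tested passed. Of the 32, 0 had an unadjusted p under 0.05 in either direction. Of all genes tested 3.05% had, 1.2% on the higher side. DESeq2 also called 0 of the 32. Log2 fold changes of mutant over control ran between −0.17 (Cdc45) and 0.23 (Cdc6), with a median of 0.02 beside 0.00 for all genes tested, and 19 were above and 13 below zero, where 51% of all genes tested were above. All cells of a culture were summed here, so a larger number of dividing cells and more RNA per dividing cell cannot be told apart in these values.

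In all cells the cultures of a group differed from each other. Pclaf had 427, 252 and 202 CPM in the mutant cultures, against 251 and 305 CPM in the control cultures (log2 fold change 0.08, SE 0.28, 95% interval −0.59 to 0.74). Rrm2 had 66.2, 43.1 and 35.8 CPM in the mutant cultures, against 38.9 and 45.7 CPM in the control cultures (0.20, SE 0.24). In both genes mutant culture 1 was highest, mutant culture 3 was lowest, and the control cultures lay between them. Pcna had 149, 124 and 109.9 CPM in the mutant cultures, against 128 and 133 CPM in the control cultures (−0.04, SE 0.13). Pcna kept that order. Dut had 204, 142 and 135 CPM in the mutant cultures, against 140.1 and 162 CPM in the control cultures (0.08, SE 0.18). Tyms had 115, 111 and 84.9 CPM in the mutant cultures, against 93.9 and 123 CPM in the control cultures (−0.07, SE 0.16). The groups overlapped in these genes too, and for Tyms control culture 2 was above every mutant culture.

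The share of cycling-like cells had the same order over the mutant cultures. It was 29.4%, 24.9% and 14.7% in mutant cultures 1, 2 and 3, against 17.6% and 20.6% in control cultures 1 and 2 (two-sided exact permutation test, p = 0.6, with 0.2 the smallest p that 3 against 2 cultures can give). Stem-like cells made up 12.4%, 19.2% and 24.4% in the mutant cultures, against 23.8% and 23.5% in the control cultures (p = 0.6 in the same exact test). The part of these shares in the gene levels was not tested.

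Other genes also kept the control cultures within the mutant range. Mcm6 had 89.3, 66.0 and 85.1 CPM in the mutant cultures, against 71.1 and 77.6 CPM in the control cultures (0.10, SE 0.14). Mcm3 had 83.2, 71.1 and 67.5 CPM in the mutant cultures, against 72.5 and 73.1 CPM in the control cultures (0.02, SE 0.11). Slbp had 110.0, 103 and 86.0 CPM in the mutant cultures, against 91.9 and 97.0 CPM in the control cultures (0.08, SE 0.12). E2f1, at a low level throughout, did the same. It had 14.8, 11.9 and 11.7 CPM in the mutant cultures, against 13.2 and 12.3 CPM in the control cultures (0.00, SE 0.16).

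Cdc45, Prim1, Lig1 and Uhrf1 were also highest in mutant culture 1 and lowest in mutant culture 3. Cdc45 had 15.9, 12.8 and 8.11 CPM in the mutant cultures, against 12.4 and 15.7 CPM in the control cultures (−0.17, SE 0.26). Prim1 had 59.0, 46.9 and 42.0 CPM in the mutant cultures, against 43.4 and 50.3 CPM in the control cultures (0.07, SE 0.15). Lig1 had 94.0, 71.4 and 63.4 CPM in the mutant cultures, against 71.5 and 74.4 CPM in the control cultures (0.06, SE 0.16). The control cultures again lay inside the mutant range. Uhrf1 had 46.8, 32.3 and 31.96 CPM in the mutant cultures, against 32.5 and 42.6 CPM in the control cultures (−0.02, SE 0.19), with mutant cultures 2 and 3 nearly level.

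By p, the genes nearest to a difference above zero were Cdc6, Rpa2 and Rrm2, and those below zero were Mcm7, Mcm4 and Ung. Cdc6 had 19.4, 14.98 and 16.2 CPM in the mutant cultures, against 14.5 and 14.3 CPM in the control cultures (0.23, SE 0.15, edgeR adjusted p = 0.9997). It was the single gene of the 32 whose groups did not overlap, where 9.15% of all genes tested were higher in every mutant culture and 7.8% lower. Rpa2 had 60.8, 50.9 and 44.8 CPM in the mutant cultures, against 47.3 and 45.1 CPM in the control cultures (0.17, SE 0.14). Neither passed. Ung ran the other way across the mutant cultures, with 23.6, 26.4 and 29.8 CPM, against 28.1 and 28.0 CPM in the control cultures (−0.09, SE 0.13). Mcm7 had 72.5, 66.3 and 58.9 CPM in the mutant cultures, against 66.3 and 74.7 CPM in the control cultures (−0.10, SE 0.11). Mcm4 had 58.2, 52.4 and 50.6 CPM in the mutant cultures, against 55.8 and 57.1 CPM in the control cultures (−0.08, SE 0.10).

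Within cycling-like cells, most of the 32 genes were slightly higher in the mutant cultures and none passed. The share of cycling-like cells in a culture no longer enters these values, but the mix of the Pclaf/Rrm2 and histone/mitotic clusters still does. The class held 83, 70 and 29 mutant cells and 57 and 72 control cells. In edgeR, 0 of 32 genes passed among 9219 tested, of which 0.0217% passed, and DESeq2 called 0 of the 32. Log2 fold changes were above zero for 29 genes and below zero for 3, with a median of 0.14, where the median of all genes tested was 0.00 and 50.4% of them were above zero. In 13 of the 32 genes (40.6%) every mutant culture was higher than both control cultures, which held for 11.1% of all genes tested. The reverse held for 0 of the 32 and for 9.38% of all genes tested. These genes varied together over stem-like and cycling-like cells, so they are not independent of each other.

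That count was 6 of 32 (18.75%) with the MULTIseqDemux assignment of cells, beside 11.2% of all genes tested there. MULTIseqDemux gave 272, 362 and 239 cells to the mutant cultures and 365 and 215 to the control cultures. These cells were clustered and named anew, so assignment and clusters changed together. The count was also 6 when every culture was cut to the same number of cells, beside 10.2% of all genes. In the Pclaf/Rrm2 cluster alone 4 of 32 (12.5%) were higher, near the 11.04% of all genes, and 2 were lower, where 9.80% of all genes were. In the histone/mitotic cluster alone 9 were higher, beside 9.79% of all genes. The median log2 fold change was 0.03 with MULTIseqDemux, 0.02 in the Pclaf/Rrm2 cluster alone and 0.17 in the histone/mitotic cluster alone. The last 2 were chosen after seeing the data.

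Summed over the list, the 32 genes took 0.339%, 0.317% and 0.334% of cycling-like UMIs in the mutant cultures, against 0.301% and 0.309% in the control cultures. The 15 mitotic markers took 0.292%, 0.286% and 0.223% in the mutant cultures, against 0.315% and 0.327% in the control cultures. The 8 histone genes of the marker list took 0.225%, 0.238% and 0.211% in the mutant cultures, against 0.279% and 0.282% in the control cultures. None of these 3 sums overlapped between groups over the whole class, with the mitotic and histone sums lower in the mutant cultures and no test made. The mitotic and histone genes were also markers that named this class, and they were not left out of the clustering. Their sums thus depend in part on how the class was drawn. The share of comparable gene sums that separate the groups was not computed, nor were these sums with MULTIseqDemux or equal cell numbers. The other 86 replication genes took 0.585%, 0.586% and 0.605% in the mutant cultures, against 0.565% and 0.575% in the control cultures, also with no overlap.

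Within single clusters these sums did not all keep that pattern. In the Pclaf/Rrm2 cluster the 32 genes took 0.383%, 0.375% and 0.373% in the mutant cultures, against 0.384% and 0.343% in the control cultures. In the histone/mitotic cluster they took 0.329%, 0.280% and 0.313% in the mutant cultures, against 0.266% and 0.299% in the control cultures, so the groups overlapped in both. The histone sum in the Pclaf/Rrm2 cluster was higher in every mutant culture, at 0.108%, 0.110% and 0.115%, against 0.102% and 0.0847% in the control cultures. In the histone/mitotic cluster it was lower in every mutant culture, at 0.252%, 0.321% and 0.262%, against 0.353% and 0.347% in the control cultures. The mitotic sum overlapped between groups in each of the 2 clusters. The Pclaf/Rrm2 cluster made up 19.3%, 42.9% and 37.9% of cycling-like cells in the mutant cultures, against 33.3% and 27.8% in the control cultures, with overlap, and its part in these sums was not tested.

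**Figure D3:**
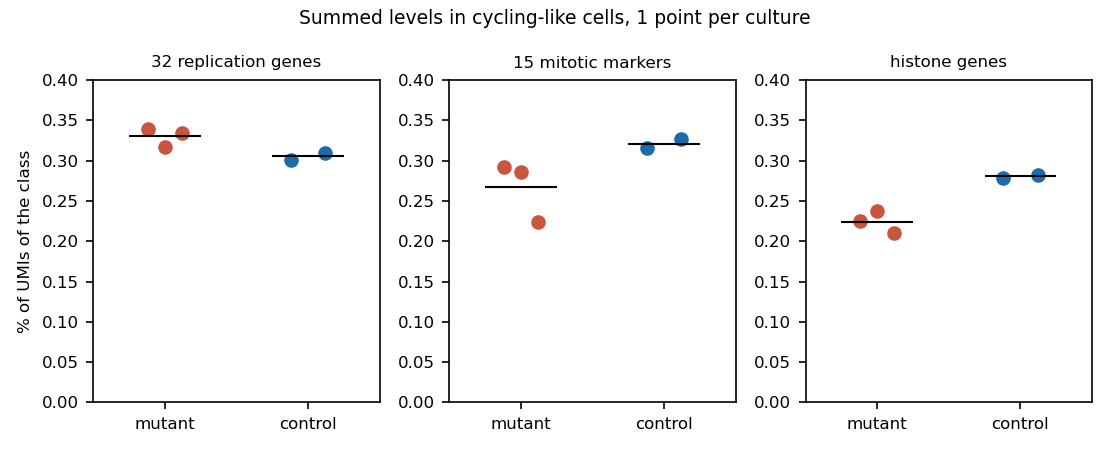
Summed levels in cycling-like cells as a percentage of their UMIs (vertical axes, starting at 0), with 1 point per culture, mutant left and control right, and the group mean as a line. The 32 replication genes lie above the control cultures in all 3 mutant cultures, while the 15 mitotic markers and the histone genes lie below them. The mitotic and histone genes were also markers that named this class, and no test was made.

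The genes with the smallest p in cycling-like cells were Rpa2, Cdc6 and E2f1. Rpa2 had 78.9, 78.0 and 87.9 CPM in the mutant cultures, against 60.8 and 61.3 CPM in the control cultures (log2 fold change 0.39, SE 0.12, 95% interval 0.13 to 0.66, edgeR adjusted p = 0.991). Cdc6 had 22.5, 21.8 and 28.2 CPM in the mutant cultures, against 17.6 and 12.8 CPM in the control cultures (0.62, SE 0.23, adjusted p = 0.991). E2f1 had 15.6, 16.0 and 28.2 CPM in the mutant cultures, against 12.3 and 10.5 CPM in the control cultures (0.67, SE 0.30, adjusted p = 0.991). All 3 mutant cultures were above both control cultures in each, and for Cdc6 and E2f1 mutant culture 3, with the fewest cells, was highest. These were the 3 genes of the 32 with an unadjusted p under 0.05, as had 1.81% of all genes tested in that direction. For E2f1 the value was 0.18 with MULTIseqDemux and 0.03 when every culture had as many cells.

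Of the helicase genes, 8 of 9 were above zero. Mcm6 had 95.2, 87.9 and 109.9 CPM in the mutant cultures, against 76.3 and 82.8 CPM in the control cultures (0.26, SE 0.13). Mcm4 had 66.8, 66.1 and 79.5 CPM in the mutant cultures, against 54.4 and 59.4 CPM in the control cultures (0.27, SE 0.14). Neither gene overlapped between groups, and neither passed. Mcm3 had 92.4, 94.5 and 96.3 CPM in the mutant cultures, against 92.8 and 75.9 CPM in the control cultures (0.15, SE 0.12), so control culture 1 reached the mutant level. Mcm7 had 91.7, 93.6 and 87.9 CPM in the mutant cultures, against 84.3 and 88.3 CPM in the control cultures (0.07, SE 0.11). Cdc45 stood at 20.4, 23.8 and 17.8 CPM in the mutant cultures, against 19.7 and 25.2 CPM in the control cultures (−0.10, SE 0.21), with the groups interleaved.

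Of the clamp, loader and fork genes, 7 of 8 were above zero and Pclaf was not. Pclaf had 724, 552 and 647 CPM in the mutant cultures, against 625 and 676 CPM in the control cultures (−0.03, SE 0.10, 95% interval −0.26 to 0.19). Pcna had 190.1, 185 and 176 CPM in the mutant cultures, against 168 and 169 CPM in the control cultures (0.12, SE 0.09). Pcna was higher in every mutant culture, while Pclaf overlapped. Rfc2, Rfc4, Rfc5 and Clspn also lay higher in every mutant culture, by 0.12 to 0.14 on the log2 scale, without passing.

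All 5 synthesis and repair enzymes were above zero. Lig1 had 127, 125 and 115 CPM in the mutant cultures, against 109 and 101 CPM in the control cultures (0.22, SE 0.10). Prim1 had 84.8, 81.7 and 82.7 CPM in the mutant cultures, against 70.9 and 78.2 CPM in the control cultures (0.14, SE 0.12). These 2 did not overlap. Ung had 17.7, 29.6 and 29.3 CPM in the mutant cultures, against 21.3 and 21.5 CPM in the control cultures (0.18, SE 0.25), with mutant culture 1 below both control cultures. Ung stood at 1.04 in the histone/mitotic cluster alone and at −0.40 in the Pclaf/Rrm2 cluster alone, without passing in either.

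Nucleotide supply genes overlapped between groups throughout. Rrm2 had 108, 85.8 and 111 CPM in the mutant cultures, against 82.1 and 94.7 CPM in the control cultures (0.17, SE 0.13). Dut had 289, 234 and 268 CPM in the mutant cultures, against 219 and 243 CPM in the control cultures (0.18, SE 0.11). Tyms had 166, 193 and 185 CPM in the mutant cultures, against 185 and 199 CPM in the control cultures (−0.10, SE 0.10). For each, the lowest mutant culture lay below the higher control culture. Rrm1 stood at 0.09 (SE 0.14).

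Chromatin genes were all above zero by small amounts, between 0.04 (Slbp) and 0.21 (Uhrf1). Slbp had 126, 141 and 117 CPM in the mutant cultures, against 124 and 126 CPM in the control cultures (0.04, SE 0.11). Uhrf1 had 57.5, 57.9 and 63.8 CPM in the mutant cultures, against 43.2 and 57.6 CPM in the control cultures (0.21, SE 0.15). Control cultures lay inside the mutant range for Slbp, and control culture 2 reached the mutant level for Uhrf1.

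**Figure D4:**
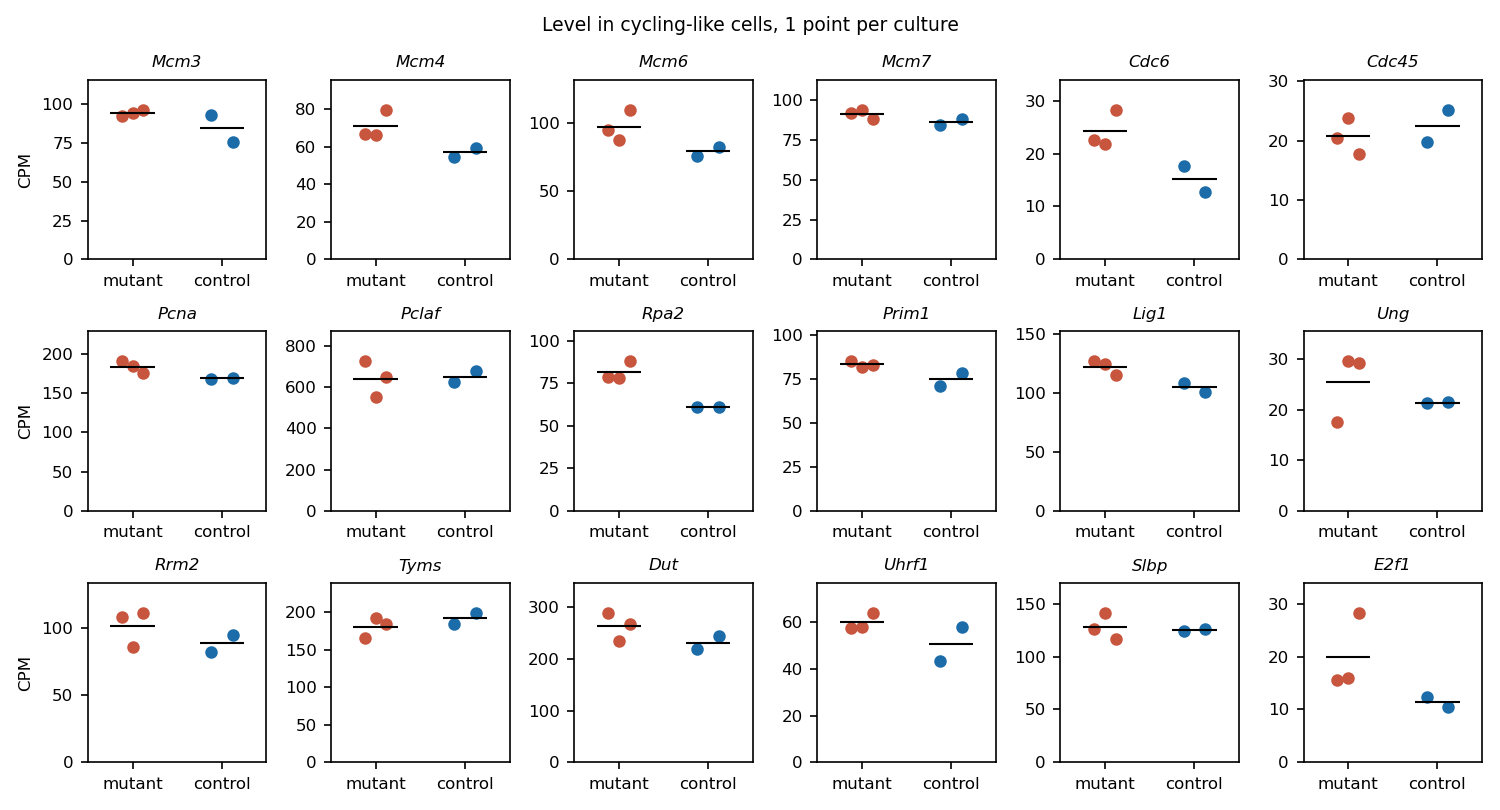
Level in cycling-like cells (CPM, axes starting at 0) of the 18 genes given with values in every culture, 1 point per culture, mutant left and control right, with the group mean as a line. Rpa2, Cdc6, Mcm6, Mcm4 and E2f1 do not overlap between groups, while Pclaf, Tyms, Slbp and Cdc45 do.

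In stem-like cells, 0 of the 32 genes passed among 8022 tested, of which 0.0249% passed, and DESeq2 called 0 of the 32. The values were above zero for 24 genes and below zero for 8, with a median of 0.15 beside 0.00 for all genes, of which 50.3% were above zero. Mcm3 had the smallest p and was the single one of the 32 under 0.05 before adjustment, beside 2.74% of all genes tested on the higher side. It had 122, 119.9 and 84.8 CPM in the mutant cultures, against 76.6 and 84.1 CPM in the control cultures (0.39, SE 0.16, edgeR adjusted p = 0.835). In Mcm3 the mutant cultures were all higher, mutant culture 3 by little. In all, 5 genes were higher in every mutant culture, against 12.4% of all genes tested, and 2, Cdc45 and Rfc3, were lower in every mutant culture, against 7.26%. With TMM-scaled CPM in place of CPM, 2 (6.25%) were higher, beside 9.60% of all genes, and 2 were lower, beside 10.01%. Pclaf had 147, 82.0 and 59.6 CPM in the mutant stem-like cells, against 112 and 103 CPM in the control ones (−0.25, SE 0.23). Whether any gene differed more in one cell class than in another was not tested.

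**Figure D5:**
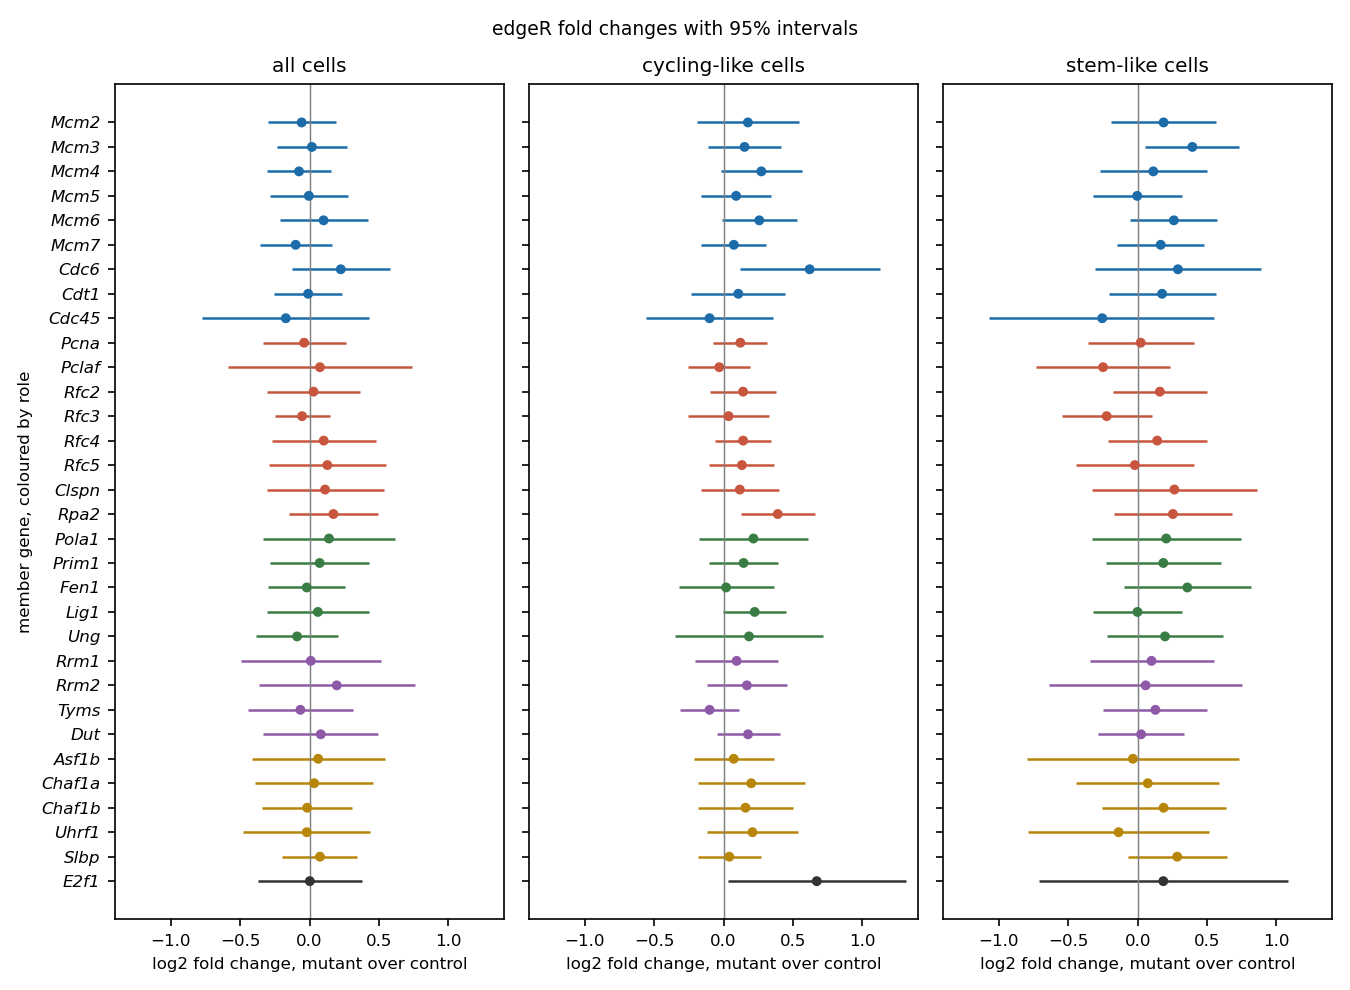
Log2 fold change of mutant over control for the 32 genes (rows, coloured by role), with 95% intervals, in all cells, cycling-like cells and stem-like cells. Points centre on zero in all cells, lie right of zero for 29 genes in cycling-like cells and for 24 in stem-like cells, and the 95% interval excludes zero for 3 genes in cycling-like cells and 1 in stem-like cells.

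Another 86 genes of DNA replication and nucleotide synthesis, listed beside the 32, were read in the same tests. Across all cells, 0 of 86 passed in either direction, with 40 above and 46 below zero, where 51% of all genes tested were above. The smallest p above zero belonged to Pold4, a small subunit of polymerase delta (0.31, SE 0.10), and to Pfas, an enzyme of purine synthesis (0.33, SE 0.14). Below zero they belonged to Rrm2b, the alternative small subunit of ribonucleotide reductase (−0.46, SE 0.22), and Nme2, a nucleoside diphosphate kinase (−0.17, SE 0.09). In cycling-like cells 0 of 86 passed, with 58 above and 28 below zero, where 50.4% of all genes tested were above. There the named genes were Atad5, which unloads the clamp (0.51, SE 0.19), Gmnn, the inhibitor of Cdt1 (0.25, SE 0.09), Nme2 (−0.25, SE 0.11) and Uck2, a uridine-cytidine kinase (−0.29, SE 0.13). In stem-like cells 0 of 73 tested passed, with 47 above and 26 below zero, where 50.3% of all genes tested were above. Dbf4, which activates the kinase that fires origins, stood at 0.62 (SE 0.24) and Adss, an enzyme of AMP synthesis, at 0.38 (SE 0.15). Nme2 stood at −0.43 (SE 0.15) and Dctd, dCMP deaminase, at −0.64 (SE 0.23). The adjusted p of these genes was 0.7905 or higher. Nme2, named for its small p, was below zero with non-overlapping groups in all 3 sets of cells, which share their cultures. Of the other 86 genes, 5 were higher and 5 lower in every mutant culture in all cells, beside 9.15% and 7.8% of all genes tested. In cycling-like cells these counts were 16 and 6, beside 11.1% and 9.38%. In stem-like cells, of the 73 tested, they were 11 and 5, beside 12.4% and 7.26%. With no filter on low counts, 1 of the 86 passed in stem-like cells, lower in the mutant cultures (edgeR adjusted p = 0.00923).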

How the data were processed

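The authors deposited a table of hashtag counts and a table of estimated counts per gene and cell, of which 95.6% of the values above 0 were whole numbers. The submitters' processing notes name build mm10 and, with no role for each, Seurat 4.3.0, Salmon 1.4.0 with alevin, and Cell Ranger 6.1.0. Barcodes were assigned to cultures by HTODemux (Seurat 5.3.0, quantile 0.99), which removed barcodes with several hashtags. Doublets within a culture may remain. Cells had at least 500 genes and at most 25% mitochondrial counts, which left 1432.

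Cells were clustered with scanpy 1.11.5 (2000 variable genes, 30 components, 15 neighbours, Leiden resolution 0.8), leaving out the 32 genes and the other 86. A cluster took a name from at least 3 markers past a log2 fold of 0.5 in at least 25% of its cells. Of the lists past this bound, the name came from the one with most markers among the cluster's 10 leading genes. A cluster stayed unnamed if a list short of the bound had more markers there. It also stayed unnamed if it was more than 3-fold shallower than its culture and had no marker of the list among those genes.

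Counts were summed per culture, rounded, and tested as mutant over control with edgeR 4.0.16 (TMM, filterByExpr, quasi-likelihood test, Benjamini-Hochberg adjustment over all genes tested). An adjusted p under 0.05 passed. The test was checked on simulated data. Alternatives used DESeq2 1.42.0, RLE scaling, no filter, MULTIseqDemux, at most 15% mitochondrial counts, equal cell numbers, no low-UMI clusters, clusters made with the members, and each culture left out. The edgeR p-values set the difference between groups against the spread between these cultures, estimated with information shared across genes. Genes given in every culture were Mcm6, Pcna, Rrm2, Pclaf, E2f1, Slbp, the 2 highest of each role and the 3 with the smallest p in each direction over all and cycling-like cells. Of the other 86 genes, the 2 with the smallest p in each direction were named. The members, lists and alternatives were chosen with earlier results of these data known.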

Additional observations from a re-analysis of the deposited data

How the results depend on the processing

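None of the 32 genes passed in any of the 3 sets of cells under any alternative run, and the smallest adjusted p of a member in any setting was 0.952 in all cells, 0.430 in cycling-like cells and 0.166 in stem-like cells. Leaving out a control culture leaves 1, which is assumed to vary like the mutant cultures. The direction of single log2 fold changes in all cells was less settled, and the cause was not tested. With MULTIseqDemux they were −0.099 (Mcm3), −0.016 (Mcm6), −0.065 (Pclaf), −0.041 (Prim1), −0.015 (Lig1), −0.001 (Rrm2), −0.083 (Dut), −0.011 (Slbp) and −0.039 (E2f1). With equal cell numbers they were −0.072 (Pclaf), −0.065 (Prim1), −0.096 (Lig1), −0.044 (Slbp) and −0.031 (E2f1). Leaving out each culture gave −0.067 to 0.072 (Mcm3), −0.38 to 0.021 (Cdc45), −0.16 to 0.052 (Pcna), −0.28 to 0.28 (Pclaf), −0.067 to 0.17 (Prim1), −0.11 to 0.17 (Lig1) and −0.175 to 0.001 (Ung). It gave −0.088 to 0.36 (Rrm2), −0.23 to 0.11 (Tyms), −0.12 to 0.185 (Dut), −0.22 to 0.155 (Uhrf1) and −0.11 to 0.073 (E2f1). Without mutant culture 1 the all-cell median over the 32 genes was −0.09, with 5 above and 27 below zero, and with MULTIseqDemux it was −0.08.

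In cycling-like cells the median, 0.14, was 0.091 with clusters made with the members, 0.033 with MULTIseqDemux, 0.17 in the histone/mitotic cluster alone, 0.022 in the Pclaf/Rrm2 cluster alone, and 0.11 to 0.14 with each culture left out. In the Pclaf/Rrm2 cluster alone Mcm3 was −0.044, Mcm7 −0.052, Ung −0.40, Rrm2 −0.024 and Uhrf1 −0.033, and in the histone/mitotic cluster alone Slbp was −0.039. With equal cell numbers Mcm7 was −0.14, Pclaf 0.22 and Ung −0.083, with MULTIseqDemux Mcm7 was −0.009 and Pcna −0.028, and with clusters made with the members Ung was −0.085. Leaving out each culture gave −0.25 to 0.09 (Cdc45), −0.14 to 0.074 (Pclaf), −0.019 to 0.445 (Ung) and −0.031 to 0.083 (Slbp). The count of members higher in every mutant culture, 13, was 6 with equal cell numbers (10.2% of all genes), 6 with MULTIseqDemux (11.2%), or 4 there on TMM-scaled levels (10.1%), and 4 in the Pclaf/Rrm2 cluster alone (11.04%). With clusters made with the members 9 were higher (10.2% of all genes) and 1 was lower (9.90%). On TMM-scaled levels 7 were higher there (9.92%) and 1 was lower (10.17%). In stem-like cells Pclaf was 0.11 with MULTIseqDemux. The difference in cycling-like cells' share, 3.88 percentage points, was −2.71 with MULTIseqDemux. The single-cluster fits and TMM-scaled levels were chosen after seeing the data. No paired analysis was possible because the hashtags give the cultures no shared replicate numbers. Depth limits low genes such as E2f1 and Cdc6, and 29 cells of 1 mutant culture limit the cycling-like comparison.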

Other observations

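A pair of unnamed clusters of low depth, with medians of 1423 UMIs (86 cells) and 5466 UMIs (170 cells), also held transcripts of the 32 genes. The first held 23, 26 and 11 mutant cells and 11 and 15 control cells, and the second 40, 25 and 16 mutant cells and 43 and 46 control cells. In the first the list took 0.162%, 0.265% and 0.213% of UMIs in the mutant cultures, against 0.392% and 0.338% in the control cultures, with no overlap. In the second it took 0.330%, 0.305% and 0.278% in the mutant cultures, against 0.245% and 0.266% in the control cultures, higher in every mutant culture. Neither difference was tested, and the share of comparable gene sums that separate the groups was not computed. In their cells that reached 5000 UMIs, a median of 12 genes per cell was found in 15 cells of the first and 10 genes in 94 cells of the second. The second was led by mitochondrial genes.

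Among the barcodes that passed the filter, 1054 had no hashtag call and 239 had several. The 32 genes took 0.158% of UMIs in barcodes with none, 0.182% in barcodes with several and 0.203% in barcodes with 1 hashtag. Pclaf stood at 176 CPM, 266 CPM and 292 CPM in the same order. Barcodes with no hashtag had a median of 5509 UMIs.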
